A study of Mus musculus with 52 samples.

Results

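The libraries described here are 33 of the 52 in the series: 17 from osteosarcomas of the p53R245W/fl genotype and 16 from osteosarcomas of the p53fl/fl genotype, chosen by genotype from the sample labels. In mouse nomenclature fl is a loxP-flanked allele, which is deleted in cells that express Cre recombinase, so p53R245W/fl tumours carry 1 floxed p53 allele beside a missense allele, and p53fl/fl tumours carry 2 floxed alleles. Another genotype, p53R172H/fl, with the same floxed allele beside another missense allele, has 19 libraries and is used for a few values only. The tissue was flash-frozen primary tumour, crushed for RNA extraction and sequenced as stranded mRNA libraries. The Cre driver, the age and sex of the mice, and whether any tumours came from the same mouse were not given in the sources used. The counts came in 2 sets. The larger set held 11 p53R245W/fl and 10 p53fl/fl libraries and gave the main test. The R1002- set, named after the prefix of its columns, held 6 and 6 libraries and gave the repeat.

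The p53 protein, encoded by Trp53, is a transcription factor that halts the cell cycle or triggers cell death after DNA damage and other stress, and its gene is altered in many human osteosarcomas. Missense changes in its DNA-binding domain remove most of its ability to activate target genes and leave a stable mutant protein in the cell. The arginine replaced in R245W touches DNA directly, and its human counterpart is among the residues most often mutated in cancer, whereas the arginine replaced in R172H helps to hold the fold of the domain. Setting p53R245W/fl against p53fl/fl tumours compares the missense allele with deletion on the same floxed background. The wild-type coding sequence around the codon is printed to show what the allele alters. It lies in exon 7 of 11 of Trp53, on the plus strand of chr11:69589192-69589230 (GRCm38), and the capitals mark the altered codon, an arginine codon at chr11:69589210-69589212.
Trp53: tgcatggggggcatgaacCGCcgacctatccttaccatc
The files hold counts per gene, so the mutant codon itself was not read here.

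Library and genotype were tied in the larger set. All 11 p53R245W/fl libraries had the column prefix R553, whereas 8 of the 10 p53fl/fl libraries had the prefixes FM or FNM and 2 had R553. Of the 11 p53R245W/fl libraries, 10 were on lanes 4 and 5, and both p53fl/fl libraries with prefix R553 were on lane 3. In the R1002- set all 12 libraries shared prefix and lane. Total counts ran between 37110198 and 67223388 per library, with a median of 52903190. Each of the 12 R1002- libraries resembled 1 library of the larger set far more than any other: the Spearman correlation over 17087 genes was 0.669 to 0.868 with that library, always of the same genotype, and 0.132 to 0.318 with the next. The repeat was therefore not read as independent tumours. The bone character of the tissue was checked with 8 osteoblast markers (Runx2, Sp7, Alpl, Col1a1, Col1a2, Ibsp, Bglap and Spp1), all of which had a median of at least 1 in counts-per-million (CPM), 5 of them with at least 1 CPM in all 33 libraries. Col1a1, the main collagen chain of bone, fell under 13 log2 CPM in 5 libraries, all p53R245W/fl: 1831 (10.16), 1835 (10.03) and 1580 (12.12) in the larger set, and 494 (10.16) and 408 (11.17), the R1002- counterparts of 1831 and 1835.

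Trp53 (chr11:69580359-69591873) itself separated the genotypes in both sets. It had 21.9, 31.4 and 50.7 CPM (lowest, median, highest) in p53R245W/fl tumours of the larger set, against 8.58, 15.3 and 19.3 CPM in p53fl/fl tumours. The R1002- set gave 25.9, 47.1 and 59.2 CPM in p53R245W/fl tumours, against 8.92, 12.7 and 19.9 CPM in p53fl/fl tumours. Every p53R245W/fl library lay above every p53fl/fl library in both sets, and every p53fl/fl library still held Trp53 counts. Trp53 rose by 1.14 on the log2 scale (SE 0.18, adjusted p = 0.0062, edgeR quasi-likelihood test with Benjamini-Hochberg adjustment) in the larger set and 1.67 (SE 0.26, unadjusted p = 2.27e-05, adjusted p = 0.102) in the R1002- set. Permutation of the genotypes (two-sided, on log2 CPM) gave p = 2e-05 over 100000 resamples in the larger set and an exact p = 0.0022 in the R1002- set, in each case the smallest p that these permutations can give where the two-sided p is 2 times the smaller one-sided p. Without the libraries of low Col1a1 the log2 fold change was 1.07 in the larger set and 1.61 in the R1002- set. Among the 9 larger-set libraries with no R1002- counterpart it was 0.62. Of 16667 genes tested in both sets, 3 (0.018%) did not overlap between genotypes in the larger set and 98 (0.588%) in the R1002- set, and Trp53 was the 1 gene (0.006%) that did not overlap in both. p53R172H/fl tumours had a Trp53 median of 36.3 CPM in the larger set and 36.8 CPM in the R1002- set, and p53R245W/fl minus p53R172H/fl was -0.15 (SE 0.14, adjusted p = 0.506, edgeR) and 0.36 (SE 0.22, adjusted p = 0.328) on the log2 scale. The plot of Trp53 by library shows the separation.

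**Figure D1:**
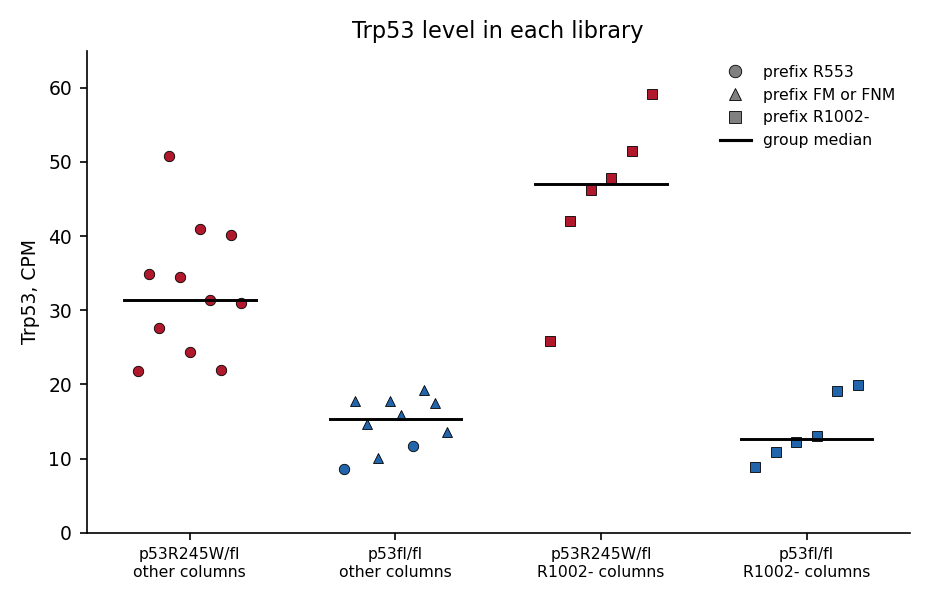
Trp53 level in CPM (vertical axis, from 0) in each library of p53R245W/fl (red) and p53fl/fl (blue) tumours, for the larger set (marked other columns) and the R1002- columns; marker shape gives the column prefix and the bar is the group median. The medians are 31.4 against 15.3 CPM in the larger set and 47.1 against 12.7 CPM in the R1002- set, with no overlap in either.

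Across all genes the larger set gave 1016 calls of 17730 tested (5.73%) at an adjusted p under 0.05 (edgeR quasi-likelihood test, Benjamini-Hochberg), of which 452 were higher (2.55%) and 564 lower (3.18%) in p53R245W/fl tumours. The R1002- set gave no call among 16869 genes by edgeR (0%; smallest adjusted p = 0.102), where 1496 genes (8.87%) had an unadjusted p under 0.05, 863 of them higher (5.12%) and 633 lower (3.75%), and DESeq2 called 122 and voom with quality weights 0. Of the 961 genes called in the larger set and tested in the repeat, 880 had the same direction there. Each R1002- library has a counterpart in the larger set, so a shared direction does not show independent replication. A gene was counted as agreeing where it was called in the larger set and had the same direction with an unadjusted p under 0.05 in the R1002- set. Pairs of log2 fold changes give the larger set first and the R1002- set second. Agreement held for 308 of 16667 genes (1.85%), 178 higher (1.07%) and 130 lower (0.78%). With the libraries of low Col1a1 left out, 221 of the 308 (117 higher and 104 lower) kept their direction at an unadjusted p under 0.05 in both sets, where 20 percent of all genes in the larger set and 10.8 percent in the R1002- set were under that p (higher ones, 8.1 percent and 4.62 percent). By the full rule without these libraries, 19 genes were called in the larger set (0.106%) and 10 agreed in both: Acin1, Abcc10, Trp53, Cox5b, Hist1h2ab, AA465934, Gm8730, Gm14165, Gm9625 and Gm44597. With the prefix FM or FNM as a covariate, for which only the 2 p53fl/fl libraries of prefix R553 carry the contrast, edgeR called 0 genes, 449 (2.53%) had an unadjusted p under 0.05, and 262 of the 308 kept their direction, 30 of them at an unadjusted p under 0.05. A test of whether the genotype difference itself differed between the sets called 0 of 19919 genes by edgeR, with 604 at an unadjusted p under 0.05, and no other tool was run on it. This fit took the 33 libraries as independent, although each R1002- library has a counterpart in the larger set, so its count of 0 does not show that the sets are alike. The plot of both fold changes shows the agreeing genes.

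**Figure D2:**
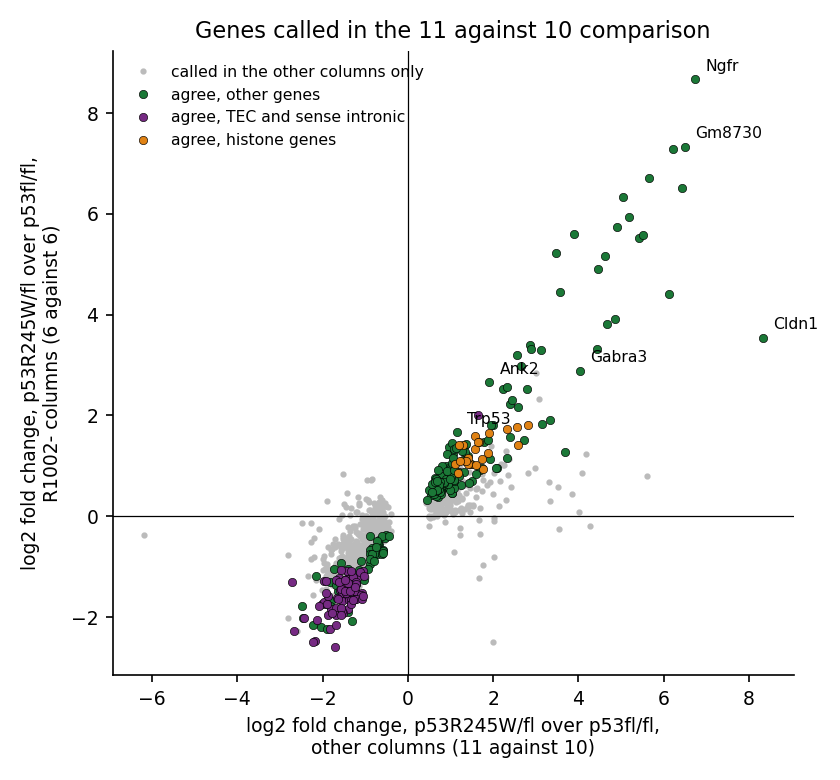
Log2 fold change of p53R245W/fl over p53fl/fl in the larger set (horizontal axis) and in the R1002- columns (vertical axis) for the 961 genes called in the larger set and tested in both. The 308 agreeing genes are coloured by kind and the others are grey; the histone genes all lie above 0, and all but 1 of the 72 TEC and sense intronic genes lie below 0.

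By kind, the agreeing genes were unevenly split. Protein-coding genes made up 191 of the 308, with 156 higher and 35 lower of 13847 tested in both sets, and 23 of those that were higher were histone genes. Loci annotated as TEC (transcripts still awaiting experimental evidence) or sense intronic made up 72, with 1 higher and 71 lower of 994 tested. There were also 13 processed pseudogenes, 4 higher and 9 lower of 381 tested, and 10 small nucleolar or Cajal body RNA genes of 120 tested, which were all higher. Over all genes tested in both sets 1.07% agreed as higher and 0.78% as lower.

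Ank2 (chr3:126921612-127499350), which encodes ankyrin-B, an adaptor that ties membrane proteins to the spectrin skeleton, was among the agreeing genes with the smallest p in the repeat. It had 20.2, 57.0 and 107 CPM (lowest, median, highest) in p53R245W/fl tumours of the larger set, against 3.13, 12.005 and 30.5 CPM in p53fl/fl tumours. Its R1002- values were 21.1, 83.04 and 173 CPM in p53R245W/fl tumours and 8.51, 11.97 and 22.1 CPM in p53fl/fl tumours. Library 1835 and its R1002- counterpart 408 were highest, and 9 of 11 and 5 of 6 p53R245W/fl libraries lay above every p53fl/fl library. Ank2 rose by 1.91 on the log2 scale (SE 0.36, adjusted p = 0.0112, edgeR quasi-likelihood test) in the larger set and 2.67 (SE 0.42, unadjusted p = 2.65e-05) in the R1002- set, and 1.74 and 2.19 without the libraries of low Col1a1. Against p53R172H/fl tumours, where 14.4% of all genes were called in the larger set, Ank2 was higher by 1.35 (adjusted p = 0.0152) and had a difference of 1.41 (adjusted p = 0.0823) in the R1002- set. Of the 18 membrane skeleton genes tested, Ank2 was the only one that agreed; 1 was called higher and 1 lower in the larger set, and the list median was -0.05 against 0.02 over all tested genes.

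The agreeing genes Asxl3, Gabra3 and Frem2 reached high levels in some p53R245W/fl tumours and at most 1.23 CPM in any p53fl/fl tumour. Asxl3, a paralogue of the Polycomb-associated Asxl1, reached 16.98 CPM in library 1575 and 20.9 CPM in its counterpart 431, with medians of 0.690 and 5.94 CPM in p53R245W/fl tumours and 0.138 and 0.0934 CPM in p53fl/fl tumours of the larger and R1002- sets. Gabra3, a subunit of the GABA-A receptor, reached 24.95 CPM in library 1580, against at most 1.23 CPM in any p53fl/fl tumour, and its log2 fold changes were 4.03 and 2.89. Frem2, an extracellular protein of basement membranes, reached 154 CPM in 1835, 126 CPM in 1580 and 284 CPM in 408, while the highest of the other p53R245W/fl libraries of the larger set had 4.15 CPM. The Frem2 log2 fold changes of 6.21 and 7.29 became 2.20 and 2.41 without the libraries of low Col1a1. Further agreeing rises were those of Scand1, a SCAN-domain protein (1.41 and 1.20), Tspan2, a tetraspanin (1.79 and 1.47), the atypical protein kinase C gene Prkcz (1.95 and 1.80), and the long non-coding RNA AA465934 (2.40 and 2.22), on the log2 scale in the larger and R1002- sets. With the prefix as covariate the larger-set value was 0.34 for Scand1 and 1.08 for Tspan2. Asxl3, Gabra3, Frem2, Scand1, Tspan2, Prkcz and AA465934 all had positive larger-set differences in p53R172H/fl over p53fl/fl tumours too. That comparison shares its p53fl/fl libraries and called 0.19% of all genes in the larger set. Its log2 fold changes were 0.64 and 0.55 for Scand1 and 0.66 and 0.20 for Tspan2, none of them called by edgeR. The others were 2.53 and 3.91 for Asxl3, 2.24 and -0.16 for Gabra3, 2.53 and 3.21 for Frem2, 1.60 and 1.76 for Prkcz, and 1.84 and 1.68 for AA465934. Of these AA465934 in the larger set was called (adjusted p = 0.0204, edgeR). p53R245W/fl minus p53R172H/fl was 0.36 and 0.06 for Prkcz and 0.57 and 0.56 for AA465934, none of them called by edgeR (smallest adjusted p = 0.245), and 3.68 (adjusted p = 0.0238, edgeR) and 4.09 (adjusted p = 0.171) for Frem2. AA465934 lies 13.7 megabases from Trp53. Apart from Trp53, none of 155 genes tested within 5 megabases of it and none of 169 between 5 and 10 megabases agreed, and 5 of 248 (2.02%) between 10 and 20 megabases did, where 1.85% of all genes agreed. AA465934, Myo19, Znhit3 and 2610027K06Rik among the 5 lay close together, 13.7 to 16.2 megabases from Trp53. Whether linkage to Trp53 plays a part in them was not tested.

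The agreeing genes that fell in p53R245W/fl tumours included Hjurp (chr1:88262471-88277633), the chaperone that loads the centromeric histone variant CENP-A. Hjurp had 87.8, 127 and 224 CPM in p53R245W/fl tumours of the larger set, against 193, 257 and 575 CPM in p53fl/fl tumours. The repeat gave 65.7, 112 and 149 CPM in p53R245W/fl tumours, against 168, 250 and 518 CPM in p53fl/fl tumours. In the larger set 9 of 11 p53R245W/fl libraries lay below every p53fl/fl library, and in the R1002- set the groups did not overlap. The fold change of Hjurp on the log2 scale was -1.15 (SE 0.23, adjusted p = 0.0146, edgeR quasi-likelihood test) in the larger set and -1.54 (SE 0.33, unadjusted p = 0.000464) in the R1002- set, -1.07 and -1.50 without low Col1a1, and -0.61 with the prefix as covariate. Hjurp was also lower than in p53R172H/fl tumours, with differences of -0.82 (adjusted p = 0.00711, edgeR) and -1.20 (adjusted p = 0.0348). Of 17 genes of centromere histone loading, Hjurp (lower) and Rbbp4 (higher, 0.62 and 0.44), a histone-binding subunit shared by several chromatin complexes, were the ones called in the larger set. The list median was 0.12 in the larger set and 0.35 in the R1002- set, against 0.02 and 0.04 over all tested genes.

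Further agreeing genes that fell were Fam20c, Adamts10, Abcc10, Schip1, Tbx6 and Myo19. Fam20c, the kinase that phosphorylates secreted matrix proteins of bone and teeth, had 9.12, 42.6 and 82.2 CPM in p53R245W/fl tumours of the larger set, against 40.3, 102 and 288 CPM in p53fl/fl tumours. Its R1002- values were 6.93, 27.1 and 93.5 CPM in p53R245W/fl tumours and 38.8, 113 and 268 CPM in p53fl/fl tumours. The groups overlapped in both sets; the log2 fold changes were -1.39 and -1.91, and -1.39 and -2.23 without low Col1a1. Adamts10, a matrix metalloprotease linked to fibrillin microfibrils, fell by 0.81 and 0.79 on the log2 scale (-0.51 with the prefix as covariate) and did not overlap in the R1002- set, with 49.1, 59.3 and 70.0 CPM in p53R245W/fl and 71.3, 107 and 114 CPM in p53fl/fl tumours. Abcc10, an ATP-binding cassette efflux transporter, had 6.46, 7.97 and 11.4 CPM in p53R245W/fl and 10.7, 12.9 and 20.8 CPM in p53fl/fl tumours of the larger set, where 10 of 11 p53R245W/fl libraries lay below every p53fl/fl library. Abcc10 log2 fold changes were -0.80 and -0.76, and it was 1 of the 3 lower genes that agreed by the full rule without low Col1a1. Schip1 (-1.72 and -1.04), the mesoderm transcription factor Tbx6 (-1.89 and -2.24) and the mitochondrial myosin Myo19 (-0.80 and -0.88) fell in the larger set with an unadjusted p under 0.05 in the repeat. With the prefix as covariate their larger-set log2 fold changes were -0.06, -0.16 and -0.44 in the same order.

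Of the histone genes on chromosome 13, 25 of 47 rose in p53R245W/fl tumours of the larger set and none fell. This list, like those of TEC loci, small RNAs and chromosome 13, was chosen after the values were seen. Replication-dependent histone genes are transcribed in S phase, and their mRNAs end in a stem-loop in place of a poly(A) tail. Of 47 histone genes tested on chromosome 13, which carries the large Hist1 cluster, the other 22 were not called in the larger set; in the R1002- set edgeR called none and 36 were higher at an unadjusted p under 0.05, and 23 agreed. Of 12 histone genes on other chromosomes, 0 were called by edgeR in the larger set, where 4 were higher at an unadjusted p under 0.05, and 2 were higher at that p in the R1002- set. The median log2 fold change was 1.28 and 1.14 on chromosome 13 and 0.59 and 0.24 elsewhere, in the larger and R1002- sets. Among all tested genes 2.55% were called higher in the larger set, and 5.12% were higher at an unadjusted p under 0.05 in the R1002- set. Whether the 2 groups of histone genes differ was not tested.

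The promoters of Hist1h2ab and Hist1h1b are printed because these genes rose and show the elements typical of the cluster, from 250 bases before to 50 bases after the gene start (RefSeq, GRCm38.p6; RefSeq symbols H2ac4 and H1f5). Capitals mark CCAAT or its reverse complement ATTGG, and TATAAA, whose reverse complement TTTATA was searched too. Hist1h2ab lies at chr13:23750838-23751137 on the plus strand and Hist1h1b at chr13:21780576-21780875 on the minus strand.
Hist1h2ab: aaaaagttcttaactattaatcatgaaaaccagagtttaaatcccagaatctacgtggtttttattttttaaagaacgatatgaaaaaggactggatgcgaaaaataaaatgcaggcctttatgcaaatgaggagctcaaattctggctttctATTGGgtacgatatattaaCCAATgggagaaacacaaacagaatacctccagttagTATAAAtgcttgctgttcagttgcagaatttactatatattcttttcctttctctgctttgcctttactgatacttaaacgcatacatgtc
Hist1h1b: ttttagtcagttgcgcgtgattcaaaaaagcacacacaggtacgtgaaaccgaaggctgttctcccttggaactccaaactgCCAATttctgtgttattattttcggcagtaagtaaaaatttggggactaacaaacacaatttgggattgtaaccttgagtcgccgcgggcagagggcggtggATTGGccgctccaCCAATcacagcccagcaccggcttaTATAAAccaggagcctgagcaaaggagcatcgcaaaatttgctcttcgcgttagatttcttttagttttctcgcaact
Promoters were matched for 52 of the 59 tested histone genes and for 21 of the 23 that agreed. CCAAT on either strand was in 76.190% of the agreeing histone promoters, 83.019% of all tested histone promoters and 37.408% of 32851 promoters of all genes. TATAAA on either strand was in 66.667%, 60.377% and 13.616% of the same sets.

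Hist1h2ab, which encodes an H2A, had 14.2, 37.3 and 156 CPM in p53R245W/fl tumours of the larger set, against 3.28, 7.17 and 20.3 CPM in p53fl/fl tumours. All p53R245W/fl libraries but 1 lay above every p53fl/fl library, and 1835 and 1831 were highest. Its log2 fold change was 2.58 (SE 0.42, adjusted p = 0.00674, edgeR quasi-likelihood test; 1.58 with the prefix as covariate) in the larger set and 1.41 (SE 0.42, unadjusted p = 0.00533) in the R1002- set. Hist1h2bg, which encodes an H2B, separated the R1002- groups, with 26.1, 33.8 and 55.3 CPM in p53R245W/fl and 8.75, 12.1 and 20.6 CPM in p53fl/fl tumours, and its log2 fold changes were 1.28 and 1.42. The linker histone gene Hist1h1b (1.10 and 1.04), the H4 gene Hist1h4k (1.21 and 1.42) and the H3 gene Hist1h3e (1.58 and 1.34) moved by similar amounts. In p53R172H/fl over p53fl/fl tumours the values were 1.57 and 0.40 for Hist1h2ab, 0.76 and 0.10 for Hist1h2bg and 0.62 and -0.08 for Hist1h1b. They were 0.61 and 0.28 for Hist1h4k and 0.88 and 0.17 for Hist1h3e, none called by edgeR. p53R245W/fl minus p53R172H/fl was not called for these genes in the larger set (smallest adjusted p = 0.0656, edgeR). In the R1002- set it was called for Hist1h2bg (1.33), Hist1h1b (1.13) and Hist1h3e (1.18). Averaged over the 47 genes, the level was 3.72, 5.11 and 6.76 log2 CPM in p53R245W/fl and 3.11, 3.92 and 4.56 log2 CPM in p53fl/fl tumours of the larger set. The R1002- values were 4.36, 5.02 and 5.31 log2 CPM in p53R245W/fl and 3.08, 3.34 and 4.39 log2 CPM in p53fl/fl tumours. The median of the 47 was 0.80 and 0.99 without low Col1a1, 1.17 with the prefix as covariate, and 0.39 among larger-set libraries with no R1002- counterpart. Several Hist1 genes are near-identical copies, so reads may be split or shared among them. Of the mitosis list, Ccnb1 (cyclin B1), itself on chromosome 13, agreed (1.16 and 0.85); none of the other 26 members was called in the larger set, and the list median was 0.13 and 0.35.

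Chromosome 13 also held agreeing genes other than histone genes. Of 533 protein-coding genes tested there 47 agreed (8.82%), all of them higher and 24 of them not histone genes, against 1.38% over all chromosomes. The median log2 fold change of the non-histone coding genes was 0.31 and 0.45, against 0.07 and 0.08 over all chromosomes. Per library, the median deviation of 317 chromosome 13 genes from each gene's usual level was -0.30, 0.00 and 0.68 (lowest, median, highest) in p53R245W/fl and -0.43, -0.12 and 0.19 in p53fl/fl tumours of the larger set. In the repeat it was -0.05, 0.30 and 0.68 in p53R245W/fl and -0.11, -0.07 and -0.01 in p53fl/fl tumours. Libraries 941, 1831 and 1835 and their R1002- counterparts 555, 494 and 408 stood above 0.5 log2 units, and no other library did. Without these 6, the non-histone median of chromosome 13 was 0.03 and 0.04, and the median of all 59 histone genes was 0.74 and 1.02. Of the 23 agreeing histone genes 19 kept their direction at an unadjusted p under 0.05 in both sets without these 6 libraries, and 175 of all 308 agreeing genes did. Under that p were 3612 of all 17989 genes tested in the larger set and 1865 of 18203 in the R1002- set. The agreeing genes had been chosen with the remaining libraries included, so kept directions are no separate support. In the larger set edgeR then called 1 of the 47 histone genes of chromosome 13 higher, and 13 of all genes. DNA copy number was not measured, and its part in these values was not tested. The plot of chromosome 13 shows both levels.

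**Figure D3:**
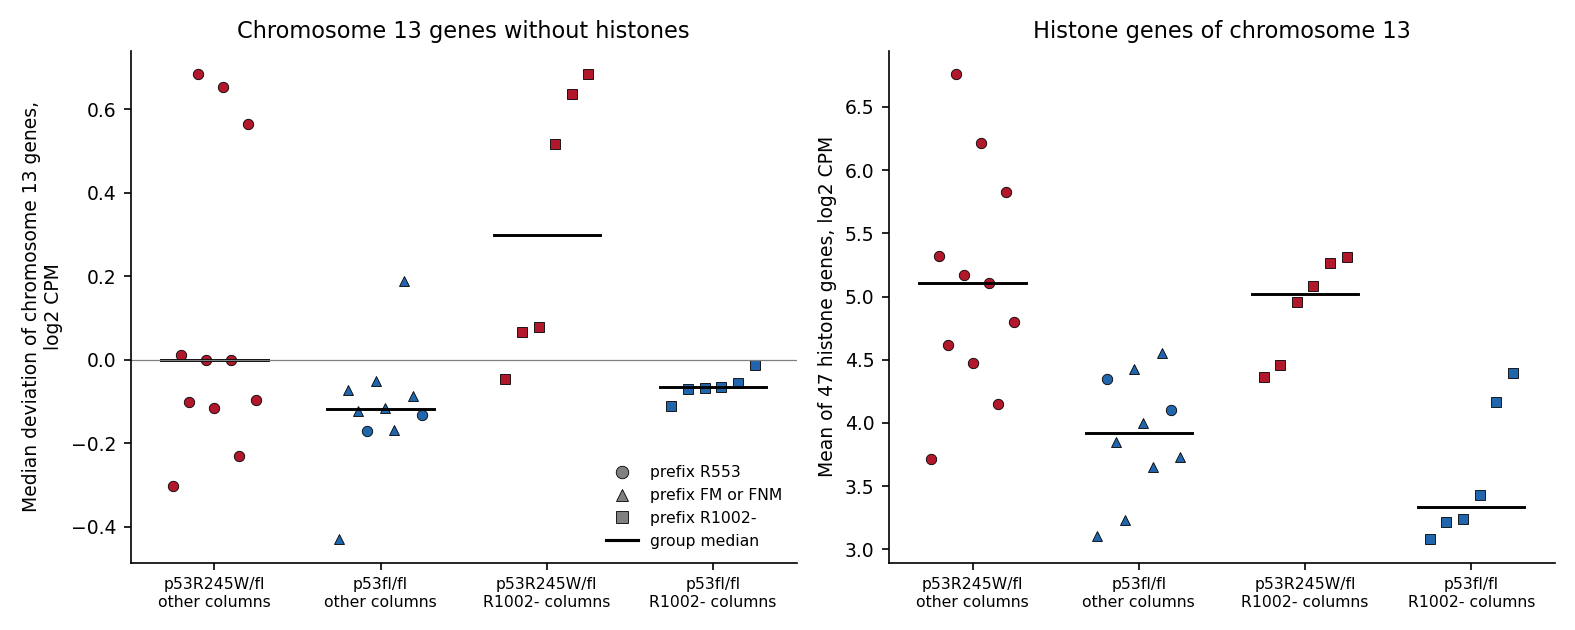
Left, median deviation in log2 CPM of 317 non-histone genes of chromosome 13 in each library; right, mean log2 CPM of 47 histone genes of chromosome 13. Points are libraries of p53R245W/fl (red) and p53fl/fl (blue) tumours, shapes give the column prefix and bars the group median; 3 p53R245W/fl libraries stand above 0.5 in the left panel in each set, and the histone medians are 5.11 against 3.92 and 5.02 against 3.34 log2 CPM.

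Gm8730, Gm9625 and Gm14165, annotated processed pseudogenes that resemble Rplp0, the ribosomal stalk protein gene, met the full agreement rule whether the libraries of low Col1a1 were kept or left out. A stretch of 60 bases, coding positions 388 to 447 counted from the first base of the Rplp0 start codon, is printed to show how little sets them apart, with each difference from Rplp0 in capitals. It lies at chr5:115561168-115561227 for Rplp0, chr8:102865352-102865411 for Gm8730, chr13:67810633-67810692 for Gm9625 and chr2:152354000-152354059 for Gm14165 (GRCm38; minus strand for Gm8730, plus strand for Gm9625 and Gm14165).
Rplp0: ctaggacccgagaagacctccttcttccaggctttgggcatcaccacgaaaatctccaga
Gm8730: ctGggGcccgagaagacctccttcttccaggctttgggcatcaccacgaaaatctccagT
Gm9625: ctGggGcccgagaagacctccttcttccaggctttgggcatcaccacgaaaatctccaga
Gm14165: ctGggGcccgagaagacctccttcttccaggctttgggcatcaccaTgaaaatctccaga
With the Rplp0 base first, Gm8730 carries A390G, A393G and A447T, Gm9625 carries A390G and A393G, and Gm14165 carries A390G, A393G and C434T. Over the 954 bases of the Rplp0 coding sequence Gm8730 is 98.742% identical (12 bases differ), Gm9625 97.484% (24 differ) and Gm14165 97.374% over 952 aligned bases (25 differ). Reads from a transcript of 1 of these copies may be counted at the others, so which locus the reads came from is uncertain.

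Gm8730 had 1.08, 167 and 621 CPM in p53R245W/fl tumours of the larger set, against 0.944, 1.63 and 6.07 CPM in p53fl/fl tumours. The repeat gave 1.04, 370 and 1221 CPM in p53R245W/fl tumours, against 1.92, 2.50 and 4.36 CPM in p53fl/fl tumours. The p53R245W/fl libraries fell into 2 levels: 8 of 11 and 5 of 6 lay above every p53fl/fl library, while 1813, 1832 and 1835 and the counterpart of 1835, library 408, lay within or below the p53fl/fl range. The log2 fold change of Gm8730 was 6.50 (SE 0.95, adjusted p = 0.00554, edgeR quasi-likelihood test) and 7.34 (SE 1.08, unadjusted p = 1.21e-05), with 6.65 and 7.602 without low Col1a1 and 5.37 with the prefix as covariate. Gm9625 had medians of 55.6 and 88.1 CPM in p53R245W/fl and 1.13 and 2.46 CPM in p53fl/fl tumours (log2 fold changes 5.41 and 5.52). Gm14165 had 10.6 and 3.59 CPM in p53R245W/fl and 0.125 and 0.116 CPM in p53fl/fl tumours (6.11 and 4.42). The same 4 p53R245W/fl libraries were low for both. Rplp0 itself had a median of 1176 CPM in p53R245W/fl and 1154 CPM in p53fl/fl tumours of the larger set (log2 fold change -0.13, adjusted p = 0.771, edgeR), and 977 CPM in p53R245W/fl and 1477 CPM in p53fl/fl tumours of the R1002- set (-0.71, unadjusted p = 0.0203). Among p53R172H/fl tumours Gm8730 was high in libraries 847 (241 CPM) and 865 (184 CPM), with a group median of 2.58 CPM in the larger set. Whether the mice of the genotypes differ in strain at these loci was not tested.

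**Figure D4:**
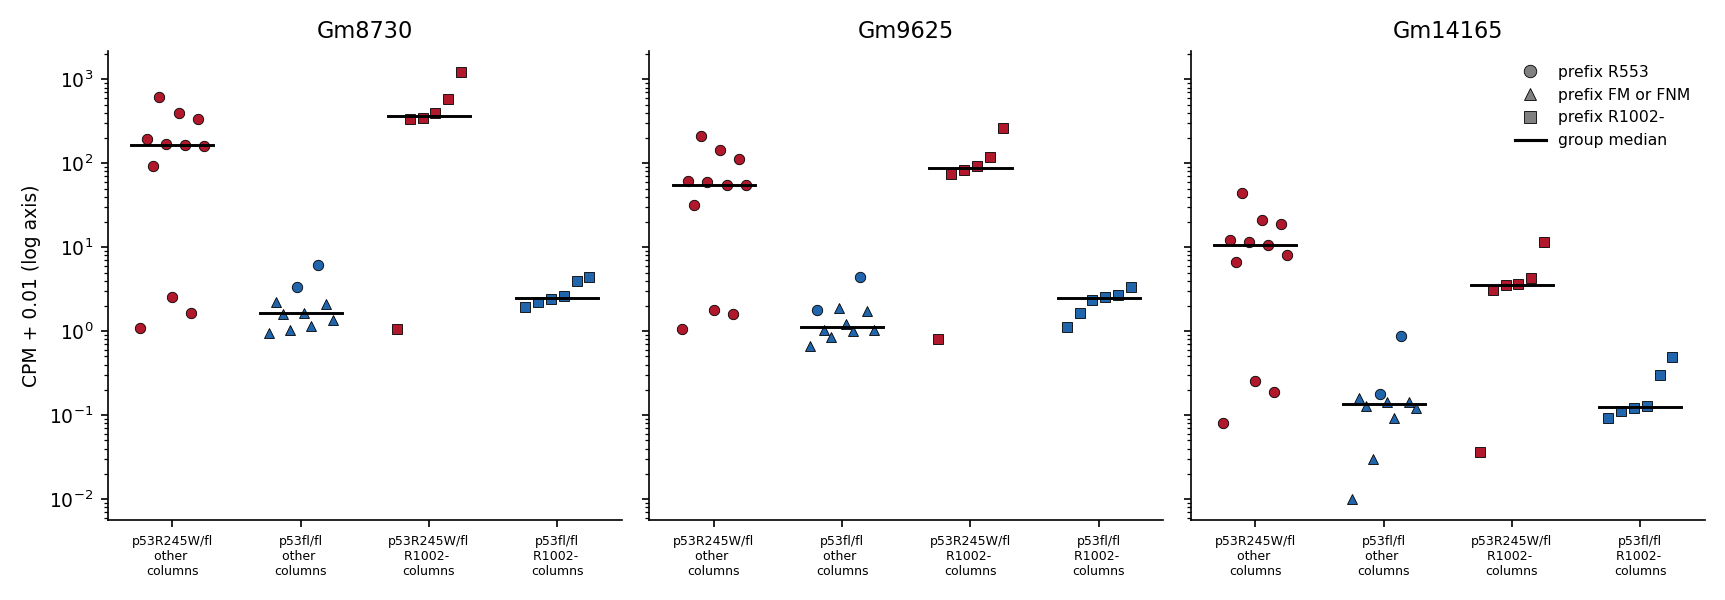
CPM plus 0.01 (log axis) of Gm8730, Gm9625 and Gm14165 in each library of p53R245W/fl (red) and p53fl/fl (blue) tumours of the larger set (other columns) and the R1002- columns; shapes give the column prefix and bars the group median. In all panels 8 of 11 and 5 of 6 p53R245W/fl libraries lie above every p53fl/fl library and the others are at the p53fl/fl level.

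Among the classical p53 targets, Btg2, an antiproliferative gene, and Gadd45a, a DNA damage response gene, agreed. Btg2 had 12.8, 24.6 and 88.8 CPM in p53R245W/fl and 9.81, 15.9 and 21.0 CPM in p53fl/fl tumours of the larger set, with log2 fold changes of 1.08 and 0.70. Gadd45a had 6.77, 16.1 and 51.7 CPM in p53R245W/fl and 3.97, 6.27 and 17.4 CPM in p53fl/fl tumours, with log2 fold changes of 1.18 and 1.38. Both overlapped between genotypes. The best-known targets were not called: the cell cycle inhibitor gene Cdkn1a had log2 fold changes of -0.20 (adjusted p = 0.806, edgeR) and -0.59, and Mdm2, the ubiquitin ligase of p53, -0.21 (adjusted p = 0.459, edgeR) and -0.06. Of 35 p53 targets tested, 3 were called higher and 0 lower in the larger set, 4 were higher and 0 lower at an unadjusted p under 0.05 in the R1002- set, and 2 agreed. Over all tested genes 2.55% were called higher in the larger set, and 5.12% were higher at that p in the R1002- set. The list median was 0.30 and 0.29, against 0.02 and 0.04 over all tested genes. With the prefix as covariate it was 0.12, against 0.09 over all genes in that fit.

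Oxidative phosphorylation was the pathway list with the most agreeing members. Of its 38 genes 12 were called higher and 0 lower in the larger set, 12 were higher and 0 lower at an unadjusted p under 0.05 in the R1002- set, and 7 agreed: Ndufb6, Ndufs4, Ndufc1, Sdhc, Cox4i1, Cox5b and Cox7b, which encode subunits of complexes I, II and IV. Over all tested genes 2.55% were called higher and 3.18% lower in the larger set. In the R1002- set 5.12% of all tested genes were higher and 3.75% lower at an unadjusted p under 0.05. Ndufb6 of complex I had 26.0, 40.9 and 53.5 CPM in p53R245W/fl and 9.70, 14.8 and 36.1 CPM in p53fl/fl tumours of the larger set. In the R1002- set Ndufb6 had 29.2, 39.3 and 45.9 CPM in p53R245W/fl and 12.2, 21.1 and 27.6 CPM in p53fl/fl tumours, with no overlap. Its log2 fold change was 1.19 and 0.87, but 0.32 with the prefix as covariate. Cox5b of complex IV had 85.5, 107 and 161 CPM in p53R245W/fl and 41.1, 53.9 and 112 CPM in p53fl/fl tumours of the larger set, and its log2 fold change was 1.04 (SE 0.17, adjusted p = 0.00667, edgeR quasi-likelihood test) and 0.46 (SE 0.19, unadjusted p = 0.031), with 0.48 in the larger set under the prefix covariate. The p53fl/fl library with 112 CPM of Cox5b was 6019, 1 of the 2 with prefix R553. The list median was 0.52 and 0.48, and 0.55 and 0.63 without low Col1a1, but 0.10 with the prefix as covariate, against 0.09 over all genes in that fit. Prefix and genotype cannot be told apart for 8 of the 10 p53fl/fl libraries.

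The proteasome, ribosomal protein and cholesterol synthesis lists had 1 or 2 agreeing members each. The shares of all tested genes called in the larger set were 2.55% higher and 3.18% lower. At an unadjusted p under 0.05 in the R1002- set 5.12% were higher. Of 27 proteasome genes 4 were called higher and 0 lower, and Psma5 (0.63 and 0.58) and Psma2 (1.43 and 0.66) agreed. Psma2 reached 733 CPM in library 1580, against 164 CPM in the next, and without low Col1a1 its log2 fold change was 0.52 and 0.57. Of 30 cytosolic ribosomal protein genes 5 were called higher and 1 lower, and Rps23 agreed (0.64 and 0.69). The medians were 0.33 and 0.33 for the proteasome and 0.50 and 0.39 for the ribosomal proteins. With the prefix as covariate the larger-set medians were 0.07 for the proteasome and 0.01 for the ribosomal proteins, against 0.09 over all genes in that fit. Of 23 cholesterol synthesis genes 1 was called higher in the larger set and 5 were higher at an unadjusted p under 0.05 in the R1002- set; Hmgcs1, which makes HMG-CoA for sterol synthesis, agreed (0.81 and 1.001), and the median was 0.43 and 0.33, with 0.33 under the prefix covariate. Psma2, Rps23 and Hmgcs1 lie on chromosome 13, as does Ndufs4 of the oxidative phosphorylation list. The plot of list medians sets these side by side.

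**Figure D5:**
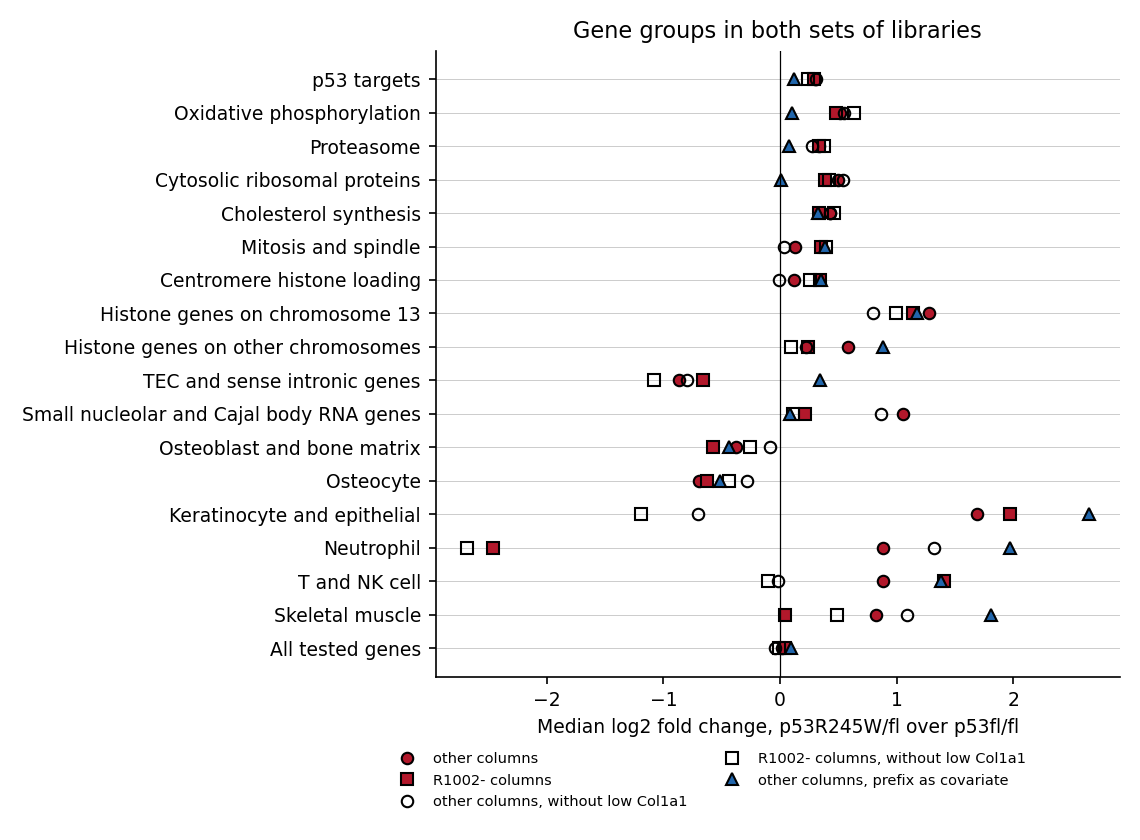
Median log2 fold change of p53R245W/fl over p53fl/fl (horizontal axis) for 17 gene lists and all tested genes, in the larger set (filled circles) and the R1002- columns (filled squares), without libraries of low Col1a1 (open symbols) and with the prefix as covariate (triangles). The oxidative phosphorylation, ribosomal protein and proteasome medians lie between 0.27 and 0.63 except with the prefix as covariate, where they are 0.10, 0.01 and 0.07; the keratinocyte median changes sign without low Col1a1.

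In the cell type lists single libraries stood out. In bulk tissue, fewer cells of a type and less RNA per cell cannot be told apart. Of 30 osteoblast and bone matrix genes 0 were called higher and 1 lower in the larger set, and none agreed. The osteoblast median was -0.38 and -0.57, and -0.08 and -0.26 without low Col1a1. Col1a1 had 10.03, 14.69 and 16.48 log2 CPM in p53R245W/fl and 14.17, 14.99 and 16.16 log2 CPM in p53fl/fl tumours of the larger set, with a log2 fold change of -0.15 (adjusted p = 0.903, edgeR) and -1.05 in the R1002- set (adjusted p = 0.676). Of 12 osteocyte genes none was called by edgeR in the larger set, where 1 was higher and 1 lower at an unadjusted p under 0.05, and 2 were lower at an unadjusted p under 0.05 in the R1002- set, with medians of -0.69 and -0.63. The osteocyte medians were -0.28 and -0.43 without low Col1a1. The keratinocyte and epithelial list of 9 tested genes had medians of 1.69 and 1.97, and -0.70 and -1.20 without low Col1a1. Its agreeing member Cldn1, a tight junction protein, stood at 2239 CPM in library 1580, 46.3 CPM in 1835 and 14.98 CPM in 1831, against at most 2.09 CPM in p53fl/fl tumours, and its log2 fold changes of 8.32 and 3.54 became 1.21 and 0.02 without low Col1a1. Ngfr, the nerve growth factor receptor of neural crest and Schwann cells, stood at 1065 CPM in 1835, 1255 CPM in its counterpart 408 and 91.4 CPM in 1580, and its 6.74 and 8.67 became 1.80 and 1.66. The summed level of 4 Schwann and neural crest markers was 1.25 to 1148 CPM in p53R245W/fl and 1.81 to 5.46 CPM in p53fl/fl tumours of the larger set, and none of the 4 was at 0 throughout a group. The summed level of 4 neutrophil markers was 0.601 to 294 CPM in p53R245W/fl and 1.73 to 134 CPM in p53fl/fl tumours of the larger set, and 1.04 to 17.6 CPM in p53R245W/fl and 4.51 to 216 CPM in p53fl/fl tumours of the R1002- set. The neutrophil list had opposite medians in the 2 sets, 0.88 in the larger set and -2.46 in the R1002- set, where 0 of 11 genes were called by edgeR in the larger set (0 also at an unadjusted p under 0.05) and 7 of 10 were lower at an unadjusted p under 0.05 in the R1002- set. Of all tested genes 3.75% were lower at that p in the R1002- set. S100a9 of the neutrophil list, a calgranulin, had 1.88 (adjusted p = 0.318, edgeR) and -2.47 (unadjusted p = 0.0382). The T and NK cell list of 16 tested genes had medians of 0.89 and 1.41, and -0.02 and -0.10 without low Col1a1; 0 were called by edgeR in the larger set and 1 was higher at an unadjusted p under 0.05. The skeletal muscle list of 26 genes had medians of 0.83 and 0.04, with 0 called by edgeR and 1 higher at an unadjusted p under 0.05 in the larger set. The muscle median was 1.09 and 0.49 without low Col1a1 and 1.81 with the prefix as covariate. It was 1.99 and 0.67 with the share of counts from TEC and sense intronic loci as covariate. In the prefix fit 26 of 26 muscle genes were above 0, as were 27 of 27 mitosis genes and 11 of 11 neutrophil genes. The genotype contrast of the prefix fit rests on the 2 p53fl/fl libraries of prefix R553. Members of a list share these libraries and are not independent, so such counts test nothing about genotype. Of all 17730 tested genes 10424 were above 0 in the prefix fit. In the R1002- set 15 of 26 muscle genes were above 0, against 9054 of all 16869 tested genes. With the prefix as covariate, resting on the same 2 p53fl/fl libraries, the larger-set median was 2.65 for the keratinocyte list, 1.97 for the neutrophil list and 1.38 for the T and NK cell list.

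Some of the largest calls of the larger set did not agree in the repeat. Perp (5.599 and 0.79), a desmosome-associated p53 target, Itgb4 (4.28 and -0.20), the integrin of hemidesmosomes, Smtnl2 (4.10 and 0.86) and the complement gene C2 (4.01 and 0.08) were all highest in library 1580, which has no R1002- counterpart, at 242, 694, 229 and 185 CPM in that order. Without the libraries of low Col1a1, 1580 among them, their larger-set log2 fold changes were 1.22, -0.06, 1.21 and 1.58. The pseudogene Gm11942 (4.18 and 1.24) was above 20 CPM in 4 p53R245W/fl tumours of the larger set, up to 54.3 CPM in 1817, and reached 16.5 CPM in a p53fl/fl tumour of the R1002- set. Among the falls, Gm11639 (-6.19 and -0.37) rested on 96.9 CPM in p53fl/fl library 1606. Isl2, a LIM-homeodomain transcription factor of motor neurons, had medians of 0.272 CPM in p53R245W/fl and 2.03 CPM in p53fl/fl tumours of the larger set (-2.60) and missed the threshold in the repeat (-2.28, unadjusted p = 0.0753, edgeR). The TEC and sense intronic loci Gm28586 (-2.81 and -0.76), Gm44094 (-2.80 and -2.01) and Gm37578 (-2.47 and -0.14) did so too. The Wnt co-receptor gene Lrp5 was called lower in the larger set (-0.97, adjusted p = 0.0396, edgeR) and had 0.01 in the repeat, and the osteoblast collagen gene Col24a1 had -1.44 (adjusted p = 0.192, edgeR) and -2.23.

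TEC and sense intronic loci made up 225 of the 564 falls of the larger set. Of 1171 tested in the larger set 2 were called higher and 225 lower, with a list median of -0.87, and of 1008 tested in the R1002- set 4 were higher and 164 lower at an unadjusted p under 0.05, with a median of -0.66. Across all tested genes 2.55% were called higher and 3.18% lower in the larger set. In the R1002- set 5.12% were higher and 3.75% lower at an unadjusted p under 0.05. The share of TEC and sense intronic loci in all counts was 0.104 to 0.230% in p53R245W/fl tumours and 0.122 to 0.529% in p53fl/fl tumours of the larger set. Within p53fl/fl it was 0.122 to 0.184% in the 2 libraries with prefix R553 and 0.293 to 0.529% in the 8 with FM or FNM. In the R1002- set, with 1 prefix, it was 0.0775 to 0.317% in p53R245W/fl and 0.104 to 0.490% in p53fl/fl tumours. With the prefix as covariate the list median was 0.34. With this share as a covariate edgeR called 0 genes in the larger set, 974 (5.49%) had an unadjusted p under 0.05, and 296 of the 308 agreeing genes kept their direction, 125 of them at an unadjusted p under 0.05. Small nucleolar and Cajal body RNA genes had a median of 1.05 in the larger set (46 higher and 5 lower of 159) but 0.22 in the R1002- set (16 higher and 5 lower of 126 at an unadjusted p under 0.05) and 0.08 with the prefix as covariate.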

How the data were processed

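Raw gene counts were deposited by the authors as 1 table of 20730 genes and 52 libraries, and per the labels' protocols the libraries were stranded mRNA-seq. STAR and GRCm38 are named in the submitters' processing notes; the authors' counting tool, annotation and software versions were not stated there or in the labels. Columns were assigned by the tumour number in the sample titles. Gene types and positions came from GENCODE M21 by gene identifier (20668 matched, 62 did not). Whether libraries came from separate mice is not stated, so p-values measure only the spread between these libraries.

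Each set was fitted alone in edgeR 4.0.16 (R 4.3.3; TMM, filterByExpr with a minimum count of 10, robust quasi-likelihood test, Benjamini-Hochberg over all tested genes), after a test on simulated counts. CPM use TMM library sizes; log2 CPM add a prior count of 2. Alternatives used DESeq2 1.42.0, limma 3.58.1 (voom), other filters, covariates and subsets of libraries. Fold changes are p53R245W/fl over p53fl/fl, and a pair of values in brackets or joined by "and" gives the larger set first.

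The members, lists and tests were chosen with earlier results of these data known. The naming rule took Trp53 and Col1a1; genes called in both sets; agreeing genes also called without low Col1a1; up to 3 agreeing genes per list; and the 5 largest rises and falls without agreement. Other named genes, such as Asxl3, Gabra3, Frem2, Prkcz, Scand1, Tspan2, AA465934, Tbx6, Schip1, Adamts10, Fam20c, Myo19, the pseudogenes of Rplp0, Cdkn1a and Mdm2, were chosen after their values were seen.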

Additional observations from a re-analysis of the deposited data

Results flagged for a closer look

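Values of single libraries far from the others of their group (Dixon's test, groups of 4 to 10) were looked for in 171 groups, and chance alone flags about 1 in 20 groups; 13 values passed, given here in log2 CPM. Library 408 stood apart from the other 5 p53R245W/fl libraries of the R1002- set in 4 genes: low for Gm8730 (0.117, against 8.397 or more), Gm9625 (-0.246, against 6.231 or more) and Gm14165 (-3.903, against 1.662 or more), and high for the cell cycle kinase gene Cdk4 (12.216, against at most 8.206). In the same group library 494 was low for Perp (-3.411) and Lrp5 (5.421), library 485 for Gm28586 (-2.728) and Gm37578 (-3.883), and library 433 for Tbx6 (-4.641). The values of Perp, Gm28586, Gm37578 and Tbx6 there were 0.0540, 0.111, 0.0277 and 0 CPM, at or near the floor. Among p53fl/fl libraries 6019 was high for Cox5b (6.803), 4183 for Gm14165 (-0.146, only 0.863 CPM), 1606 for Gm11639 (6.599) and 400 for Myo19 (6.554).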

How the results depend on the processing

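The number of calls depended on the tool and on which libraries entered. In the larger set 1016 genes became 2115 with DESeq2, 1761 with voom and quality weights, 2134 in a fit of 3 genotypes, 2634 over all 33 libraries (which count a library and its R1002- counterpart as independent) and 2257 at an adjusted p under 0.1 (added after seeing the data), but 19 without low Col1a1, 13 without libraries of high chromosome 13 median (chosen after seeing the data), 135 without and 0 with only the libraries that have an R1002- counterpart, and 0 with the prefix or the TEC share as covariate (449 and 974 at an unadjusted p under 0.05). In the R1002- set 0 became 122 with DESeq2, 4 without low Col1a1, 2 without high chromosome 13, 4 with 3 genotypes and 5 with the TEC share. The 308 agreeing genes became 599, 472, 658 and 985 with DESeq2, voom, 3 genotypes and all libraries, 183 at 1 log2 unit in both, 10 without low Col1a1, 8 without high chromosome 13, 21 without the libraries that have a counterpart, and 0 with only those, with either covariate or with an adjusted p in the repeat. Trp53 in the larger set missed the threshold with the TEC share (1.43), the prefix (1.69), and without (0.62) or with only (1.56) the libraries that have a counterpart; in the R1002- set it passed with DESeq2 (1.67, adjusted p = 6.52e-06) and 3 genotypes (1.69). TMM against RLE factors changed neither count. The cause of these changes was not tested, other than that the subsets hold fewer libraries.

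Signs turned in 30 of the single-gene values. Without low Col1a1 these were Col1a1 (0.28), Cdkn1a (0.13) and Itgb4 (-0.0627) in the larger set and Mdm2 (0.12), C2 (-0.16) and Gm37578 (0.0242) in the R1002- set. Without high chromosome 13 they were Col1a1 (0.24), Cdkn1a (0.0201), Mdm2 (0.0935), Cldn1 (-0.40) and C2 (-0.0761). Without the libraries that have a counterpart they were Col1a1 (0.81), Cdkn1a (0.47) and Cdk4 (-0.0859), and with only those Itgb4 (-0.63) and S100a9 (-1.69). With the TEC share they were Gm11942 (-1.57), C2 (-0.0062), Gm11639 (0.0624), Gm44094 (0.0244) and Gm37578 (0.28), and with the prefix Gm28586 (0.64) and Gm44094 (0.41). Voom gave Mdm2 (0.0077), Itgb4 (0.0356), C2 (-0.13), Rplp0 (0.0891) and Lrp5 (-0.0083), DESeq2 gave Itgb4 (-0.0165) and a minimum count of 50 gave Lrp5 (-0.0077). No paired analysis was possible because the 2 genotypes share no tumour numbers.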

Other observations

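The high level of Cdk4 belonged to a stretch of neighbouring genes. In library 1835 and its R1002- counterpart 408, both p53R245W/fl, 29 consecutive expressed genes from Lrig3 to Naca (chr10:125966168-128048637, GRCm38) all stood more than 1 log2 unit above their usual level, with a median deviation of 4.58 and 4.66. Cdk4 had 8613 and 4757 CPM in these libraries, against 74.8 to 346 CPM in the other 31, and Gli1, the Hedgehog pathway transcription factor, had 2701 and 3486 CPM, against 0.189 to 84.3 CPM. Ddit3, which encodes the stress factor CHOP, had 937 and 750 CPM, against 10.1 to 66.8 CPM. As a genotype difference Cdk4 had log2 fold changes of 2.70 (adjusted p = 0.0528, edgeR) and 2.87, and 0.33 and 0.56 without the libraries of low Col1a1. In p53R245W/fl library 1813, 18 consecutive genes from Zhx2 to Nsmce2 (chr15:57694665-59601684) were high. The longest such run in any p53fl/fl library held 9 genes, by a running median of 9 genes over 1.5 log2 units. DNA copy number was not measured, and its part in these runs was not tested.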
